A study of Mus musculus with 7 samples.

Results

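Growth factor and matrix ligand genes of cardiac leukocytes are described here through 10 genes, which were taken by symbol and were present in all 7 gene-by-cell matrices of the series, 10 of 27514 shared genes. They were Igf1, Pdgfb and Vegfa (growth factors), Tgfb1, Osm, Areg and Hbegf (cytokine and epidermal growth factor family ligands), and Thbs1, Fn1 and Tgfbi (secreted matrix proteins). The rule was a list of symbols with no threshold on a measured value, and the list was drawn up with earlier results of these data known. The study followed leukocytes of the infarcted mouse heart by droplet single-cell RNA sequencing, in which each captured transcript is counted once as a unique molecular identifier (UMI).

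After a myocardial infarct, dead muscle is cleared and replaced by scar. Neutrophils enter the tissue first, monocytes follow and become macrophages, and macrophages are a known source of ligands that act on fibroblasts and vessels. Insulin-like growth factor 1 supports cell survival and growth, transforming growth factor beta drives matrix production, vascular endothelial growth factor and platelet-derived growth factor act on vessels, and fibronectin and thrombospondin belong to the provisional matrix.

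All mice were C57BL6/J, and the infarct was made by permanently tying the left coronary artery. The CD45+ libraries (10x chemistry version 2, male mice) held heart cells left unlabelled by CD45.2 antibody given into the blood, from hearts without an infarct (steady state, 5 mice) and from infarct days 1, 3 and 5 (5 mice each) and 7 (3 mice). A step that lowered neutrophil numbers preceded that sort, so numbers of neutrophils in these libraries are not those of the tissue. The CD11b+ heart pool (version 3) held myeloid cells from which blood-exposed cells had been sorted out in the same way, from infarct day 1 (5 mice), day 3 (5 mice) and day 5 (3 mice), told apart by hashtag antibodies. A further CD11b+ pool, of blood and heart cells from mice 8 to 10 weeks old, with no surgery, sham surgery or an infarct, carried 7 hashtags that could not be paired with conditions here, and it entered no comparison. Mice of a day were pooled before sequencing, so each day had 1 sum of cells per experiment.

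The CD45+ libraries held 552 to 1807 barcodes and 3737297 to 11587754 UMIs, the CD11b+ pool 5862 barcodes and 107694968 UMIs. Clusters were named from marker genes: 2802 cells of the CD45+ libraries and 2809 of the CD11b+ pool were monocyte/macrophage-like, and 428 and 1473 were neutrophil-like, called monocytes/macrophages and neutrophils below. The genes described here and those of their pathways had been left out of the clustering. One sum stood apart: of the 251 monocytes/macrophages of CD45+ day 1, 96.8% formed a sub-cluster led by Cxcl3, Lcn2, S100a8 and Saa3. In that sum the 20 neutrophil markers added up to 26390 CPM (UMIs of a gene relative to 1000000 UMIs of the sum) and the 16 monocyte/macrophage markers to 4980 CPM. Neutrophil markers made up 3242 CPM in the CD11b+ pool on day 1 and 169 to 3305 CPM in the other monocyte/macrophage sums. Other naming rules placed many CD45+ day 1 cells among the neutrophils, which numbered 217 here. With clusters named over all other clusters there were 441 neutrophils and no monocyte/macrophage sum of at least 30 cells. By each cell's own markers there were 355 neutrophils and 120 monocytes/macrophages. The fitted changes between days 1 and 5 are therefore given with and without the CD45+ day 1 sum. Levels, ratios to steady state and shares of cells on day 1 of the CD45+ libraries rest on it, and the part of these markers in the results was not tested. Pairs of CD45+ libraries shared at most 2 cell barcodes.

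For a view of the sequence before annotated starts, the 250 bases before the RefSeq start site are shown for 3 genes: Igf1, which rose most between days 1 and 5, Areg, which fell most, and Vegfa, a gene known for its response to low oxygen. They were read from the GRCm38.p6 tables, from which windows of 5 of the 10 genes were taken, with 2 for Vegfa, 1 per RefSeq start, both shown. Capitals mark matches on either strand to a cAMP response element (TGACGTCA), an AP-1 element (TGANTCA), the TATA box (TATAAA) or the core of a hypoxia response element (ACGTG). The variant of that core with another first letter, GCGTG, was counted as well.
Igf1 (chr10:87860861-87861110, plus strand): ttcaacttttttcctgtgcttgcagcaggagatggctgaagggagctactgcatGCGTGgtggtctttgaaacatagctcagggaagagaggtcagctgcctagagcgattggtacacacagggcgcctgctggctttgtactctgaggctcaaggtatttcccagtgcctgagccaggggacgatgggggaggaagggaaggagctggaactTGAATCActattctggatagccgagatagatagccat
Areg (chr5:91139349-91139598, plus strand): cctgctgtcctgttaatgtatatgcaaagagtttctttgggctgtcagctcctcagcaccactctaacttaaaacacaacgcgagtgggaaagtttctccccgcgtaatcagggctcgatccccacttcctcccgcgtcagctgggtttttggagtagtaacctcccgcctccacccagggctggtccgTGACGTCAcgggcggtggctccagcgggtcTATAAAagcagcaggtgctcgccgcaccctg
Vegfa, first start (chr17:46032378-46032627, minus strand): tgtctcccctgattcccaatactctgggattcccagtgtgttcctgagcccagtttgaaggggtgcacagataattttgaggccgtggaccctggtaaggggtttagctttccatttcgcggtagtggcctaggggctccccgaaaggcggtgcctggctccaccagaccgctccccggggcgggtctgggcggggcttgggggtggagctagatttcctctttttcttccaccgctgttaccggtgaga
Vegfa, second start (chr17:46025164-46025413, minus strand): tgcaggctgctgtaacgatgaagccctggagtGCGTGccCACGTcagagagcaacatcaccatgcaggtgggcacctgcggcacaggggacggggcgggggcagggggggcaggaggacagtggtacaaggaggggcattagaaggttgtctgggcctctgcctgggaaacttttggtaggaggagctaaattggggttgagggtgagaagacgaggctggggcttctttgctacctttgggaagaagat
The Areg window held a cAMP response element 61 bases and a TATA box 31 bases before the start. Among 32851 windows of the same length, 1.55% held the first motif and 12.4% the second. The Igf1 window held an AP-1 element 37 bases before the start, found in 6.75% of windows, and a hypoxia core 196 bases before it, found in 38.6%. The Vegfa window of the second start held hypoxia cores 218 and 211 bases before that start, a motif found in 38.6% of windows. That window lies inside the annotated Vegfa gene (46016993 to 46032369), and the Igf1 window inside the Igf1 gene (87858265 to 87937042). Whether either stretch regulates its gene was not tested. In that of the first start none of the 4 motifs was present, which says only that these letters were not in these 250 bases. Matches are descriptions of the letters and do not show that a factor binds there.

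Between day 1 and day 5 most of these genes changed in monocytes and macrophages. Igf1 rose 26.7-fold and Pdgfb 3.79-fold on the scale of the fit, while Osm, Areg, Hbegf, Thbs1 and Fn1 fell, as did Tgfb1 and Vegfa by smaller amounts. In the test, edgeR's quasi-likelihood test on 6 sums with Benjamini-Hochberg adjustment over all 10731 genes tested, 9 of the 10 genes passed an adjusted p of 0.05 for day 5 against day 1, 2 higher and 7 lower. Of all genes tested, 10.2% passed in either direction, 4.74% higher and 5.45% lower. The 2 sums of a day came from different experiments, so the p-values measure the spread between these sums after a term for the experiment, and mice were not replicates. Without that term 0 of the 10 genes and 0 of all genes passed, with 0.137 as the lowest adjusted p among the 10. Fits that left out 1 sum keep a lone sum on 1 day, which is assumed to vary as the other sums do. Passing in such a fit is therefore not read as support, and a call lost in it is given as a limit.

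**Figure D1:**
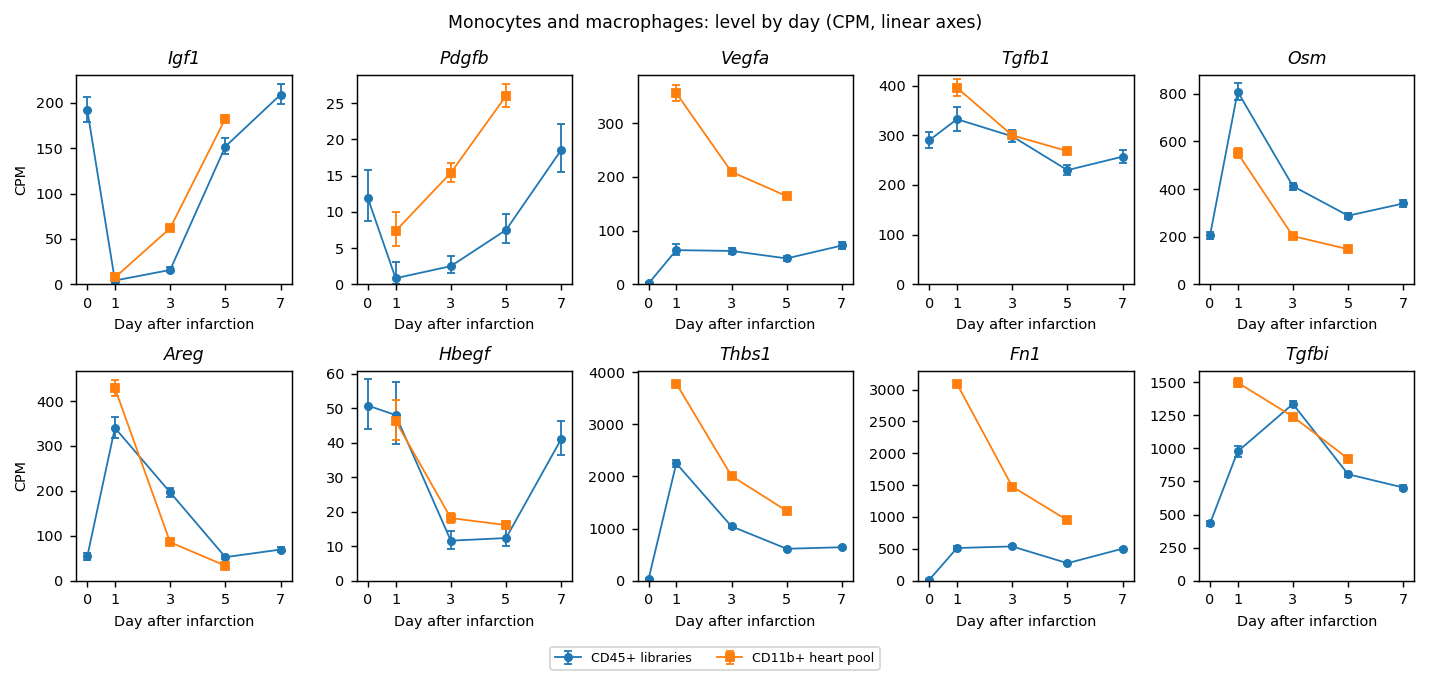
Level (CPM, linear axes) of each gene in monocytes/macrophages against the day after infarction, day 0 being the steady state. Circles are the CD45+ libraries, squares the CD11b+ heart pool, and bars exact 95% Poisson intervals, which cover counting error only. Igf1 was lowest on day 1 in both experiments and Areg, Osm and Thbs1 were highest on day 1.

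Igf1 (chromosome 10, 87858265 to 87937042, plus strand, GRCm38), insulin-like growth factor 1, stood at 192 CPM at steady state in the CD45+ libraries. It then stood at 4.21, 15.8, 152 and 209 CPM on days 1, 3, 5 and 7. CD11b+ pool levels were 7.54 CPM on day 1, 61.8 on day 3 and 183 on day 5. Both day 1 sums lay below both day 3 sums, and both day 3 sums below both day 5 sums. The log2 change was 4.74 (SE 0.48, adjusted p = 0.0091) from day 1 to day 5, and it ran from 4.20 to 5.40 in the 6 fits that left out 1 sum. The day 1 level rested on 10 UMIs in the CD45+ libraries and 42 in the pool.

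Pdgfb (chromosome 15, 79995874 to 80014977, minus strand), the B chain of platelet-derived growth factor, was a low gene throughout. Its CD45+ levels were 11.8 CPM at steady state, and 0.842 (2 UMIs), 2.51, 7.50 and 18.5 CPM on days 1, 3, 5 and 7. In the pool it went from 7.36 CPM on day 1 through 15.4 on day 3 to 26.0 on day 5. Both day 1 sums lay below both day 5 sums, though the pool on day 1 was close to the CD45+ library of day 5, and the day 3 sums overlapped with both days. The log2 change of 1.92 (SE 0.34, adjusted p = 0.028) passed in 3 of 6 fits that left out 1 sum: it was lost without CD45+ day 5 and without the pool's day 3 or day 5.

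Vegfa (chromosome 17, 46016993 to 46032369, minus strand), vascular endothelial growth factor A, was nearly absent at steady state, with 7 UMIs and 1.80 CPM. Its levels on days 1, 3, 5 and 7 were 63.6, 62.1, 48.2 and 72.3 CPM in the CD45+ libraries. Pool levels were far higher, 356 CPM on day 1, 209 on day 3 and 164 on day 5. The days overlapped across experiments, while day 5 was below day 1 within each of them. From day 1 to day 5 the log2 change was -1.03 (SE 0.21, adjusted p = 0.037), with calls in 3 of 6 fits that left out 1 sum, and it was -0.79 (adjusted p = 0.085) when sums were scaled to total counts alone. The experiments differed in chemistry, sort and run, and these cannot be told apart.

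Tgfb1 (chromosome 7, 25687002 to 25705077, plus strand), transforming growth factor beta 1, moved little. CD45+ levels were 290 CPM at steady state, and 332, 298, 230 and 257 on days 1, 3, 5 and 7. In the pool it was at 396 CPM on day 1, 300 on day 3 and 268 on day 5. Both day 5 sums lay below both day 1 sums. The log2 change was -0.79 (SE 0.16, adjusted p = 0.038), but it passed in only 2 of 6 fits that left out 1 sum and was -0.55 (adjusted p = 0.082) on total counts alone.

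Osm (chromosome 11, 4236420 to 4241026, plus strand), the gp130 cytokine oncostatin M, was at 206 CPM at steady state and at 809 on day 1 in the CD45+ libraries. Later levels there were 412 CPM on day 3, 288 on day 5 and 339.5 on day 7. Pool levels were 551 CPM on day 1, 203 on day 3 and 147.5 on day 5. Both day 1 sums were above every later sum. The log2 change from day 1 to day 5 was -1.94 (SE 0.17, adjusted p = 0.0074), and it ran from -2.05 to -1.77 in the 6 fits that left out 1 sum.

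Areg (chromosome 5, 91139599 to 91148432, plus strand), amphiregulin, a ligand of the epidermal growth factor receptor, had the steepest fall. It stood at 54.1 CPM at steady state and at 340.35, 197, 52.5 and 69.4 CPM on days 1, 3, 5 and 7 in the CD45+ libraries. CD11b+ pool values were 429 CPM on day 1, 85.7 on day 3 and 33.4 on day 5. Both day 1 sums were above all others, and by day 5 the CD45+ level was back in the range of steady state. The log2 change was -3.48 (SE 0.37, adjusted p = 0.0098), and it ran from -3.94 to -2.83 in the 6 fits that left out 1 sum.

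Hbegf, the heparin-binding ligand of the same receptor, stood at 50.7 CPM at steady state, and 48.0, 11.6, 12.4 and 41.1 on days 1, 3, 5 and 7. The pool gave 46.3 CPM on day 1, 18.2 on day 3 and 16.1 on day 5. Steady state, day 1 and day 7 were high and days 3 and 5 low. Its log2 change from day 1 to day 5 was -1.97 (SE 0.25, adjusted p = 0.014), called in 5 of 6 fits that left out 1 sum.

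Thbs1 (chromosome 2, 118111876 to 118127133, plus strand), thrombospondin 1, a matrix glycoprotein that can activate latent transforming growth factor beta, was at 41.7 CPM at steady state and 2250.6 on day 1, a ratio of 53.9 between these 2 libraries. It then stood at 1043 CPM on day 3, 613 on day 5 and 643 on day 7. The pool went from 3782 CPM on day 1 to 2009.9 on day 3 and 1339 on day 5. Within each experiment every later day was below day 1. The log2 change was -1.93 (SE 0.19, adjusted p = 0.0088), and it ran from -2.13 to -1.68 in the 6 fits that left out 1 sum.

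Fn1 (chromosome 1, 71585520 to 71653200, minus strand), fibronectin, was at 15.7 CPM at steady state, and 513, 538, 275 and 504 on days 1, 3, 5 and 7 in the CD45+ libraries. In the pool it was at 3089 CPM on day 1, 1478 on day 3 and 948 on day 5, so that every pool sum exceeded every CD45+ sum. Its log2 change was -1.57 (SE 0.27, adjusted p = 0.026). The call was lost without the pool's day 5 (adjusted p = 0.063).

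Tgfbi (chromosome 13, 56609523 to 56639562, plus strand), a matrix protein induced by transforming growth factor beta, was the gene of the 10 that did not pass. CD45+ levels were 433 CPM at steady state, and 976, 1334.5, 804 and 704 on days 1, 3, 5 and 7. Pool levels were 1496 CPM on day 1, 1239.5 on day 3 and 921 on day 5. The CD45+ peak fell on day 3 and the pool's on day 1, so the order of these days differed between experiments. Its log2 change from day 1 to day 5 was -0.74 (SE 0.20, adjusted p = 0.067).

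**Figure D2:**
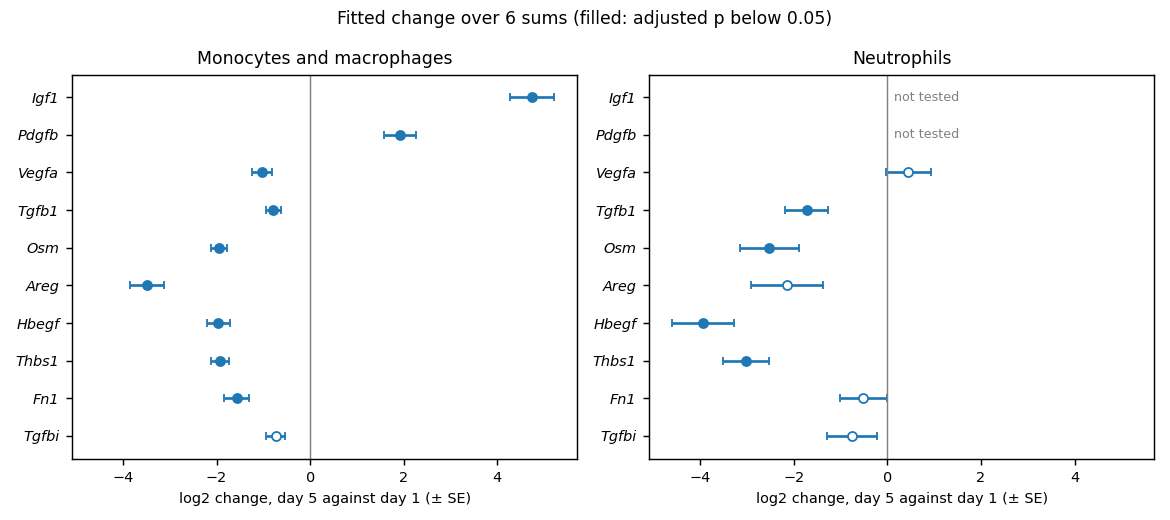
Fitted log2 change from day 1 to day 5 with its standard error for each gene in monocytes/macrophages and in neutrophils, from edgeR fits over 6 sums each. Filled circles passed an adjusted p of 0.05: 9 of 10 genes in monocytes/macrophages and 4 of 8 tested in neutrophils, where Igf1 and Pdgfb were too low to test.

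Steps shorter than the whole interval were not resolved by the main test. For day 3 against day 1, 0 of the 10 genes passed, where 0.0373% of all genes did, 4 of 10731. At an unadjusted p under 0.05, 1881 genes were found. DESeq2 on the same sums called 530 of all 10731 genes and 5 of the 10: Igf1 higher, and Osm, Areg, Hbegf and Thbs1 lower. For day 5 against day 3, 0 of the 10 passed against 0.0186% of all genes, with 789 genes at an unadjusted p under 0.05. DESeq2 called 2 of the 10 there and 105 of all 10731 genes. Leaving out the CD45+ day 1 sum, which carried neutrophil markers, kept the direction of all 10 genes between days 1 and 5. On the log2 scale Igf1 was then at 4.84, Pdgfb at 1.79, Osm at -2.05, Areg at -3.94, Hbegf at -1.60, Thbs1 at -1.68 and Fn1 at -1.92. Tgfb1 was at -0.75, Vegfa at -1.26 and Tgfbi at -0.91. In that fit the lone day 1 sum is assumed to vary as the other sums do, so only sizes of change are given here. TMM scaling, which assumes that most genes do not change, shifted the median of all genes between days 1 and 5 from 0.24 log2 on total counts to 0.01, a move of 0.23. On total counts 7 of the 10 genes passed, and all genes split into 620 higher and 343 lower in place of 509 and 585.

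Steady state and day 7 each had 1 library, so their values carry no test. Vegfa, Osm, Tgfbi, Thbs1 and Fn1 were lower at steady state than on every later day in the CD45+ libraries. Relative to steady state, the day 1 level was 35.3 times as high for Vegfa, 32.7 times for Fn1, 6.29 times for Areg, 3.93 times for Osm and 2.25 times for Tgfbi. Igf1 and Pdgfb went the other way, with steady-state levels 45.6 and 14.1 times those of day 1, the latter against 2 UMIs. These ratios have no version without the CD45+ day 1 sum, as the pool held no steady state. On day 3 the level was 34.5 times that of steady state for Vegfa, 34.3 times for Fn1, 25.0 times for Thbs1 and 3.64 times for Areg, and steady state exceeded day 3 by 12.1 times for Igf1. By day 7 Igf1 was at 1.09 times and Areg at 1.28 times its steady-state level, while Fn1 remained at 32.1 times, Vegfa at 40.1 times and Thbs1 at 15.4 times. In the steady-state sum 86.2% of cells were of the resident type, against 9.03% on day 7. With finer clusters (Leiden resolution 1.0) these shares were 24.5% and 5.28%, since 52.4% of steady-state cells then took the MHC II-high name and 19.9% none.

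Shares of cells with a transcript followed the levels. With every cell thinned to 2000 UMIs, which left out 36 of 2802 cells of the CD45+ libraries, Igf1 was seen in 29.5% of monocytes/macrophages at steady state and in 0.820%, 2.00%, 18.4% and 27.3% on days 1, 3, 5 and 7. B cells, which should lack Igf1, came mostly from day 7 (976 of 1031) and gave 3.79% in that library. Their median depth there before thinning was 2767.5 UMIs, against 10729 in monocytes/macrophages. Libraries of days 1 and 3 held too few B cells for such a background, so their low shares have none from the same library. The unthinned shares of Igf1 on days 1 and 5 were 3.59% and 38.2%. Osm was seen in 24.9% at steady state, 63.5% on day 1 and 34.6% on day 5, with 8.20% in B cells of day 7. Thbs1 went from 3.61% at steady state to 80.3% on day 1 and 48.8% on day 5, and Fn1 from 1.61% to 48.4% and 29.7%, with 14.2% and 8.91% in B cells of day 7. Vegfa was seen in 0.402% at steady state. T and NK cells of the steady-state library, with a median of 4520 UMIs against 7249, gave 0 of 41 cells for Thbs1, which allows up to 7.32%, and 1 of 41 each for Fn1 and Vegfa, 2.44%. The steady-state shares of these 3 genes were not separable from that background at this number of cells. In both experiments 8 of the 10 genes had a lower share on day 5 than on day 1, and the exceptions were Igf1 and Pdgfb.

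States within the monocytes/macrophages were named from markers in each experiment apart: a resident type (Lyve1, Folr2, Cbr2 and others, found in the CD45+ libraries only and led also by the stress genes Hspa1a, Jun and Atf3), Ly6c2+ monocytes, Arg1-high inflammatory monocytes, and Trem2+ Gpnmb+, MHC II-high, interferon-high and proliferating macrophages. Igf1 was highest in Trem2+ Gpnmb+ macrophages in both experiments, at 234 CPM in the CD45+ libraries and 199 in the pool. Resident-type macrophages held 212 CPM of Igf1, and with finer clusters they were the highest state of the CD45+ libraries, 278 CPM against 239 in Trem2+ Gpnmb+ macrophages. At the resolution used here Igf1 was lowest in Ly6c2+ monocytes, 9.38 and 11.6 CPM. States come from the same cells as the levels, so no test of state against state was made.

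**Figure D3:**
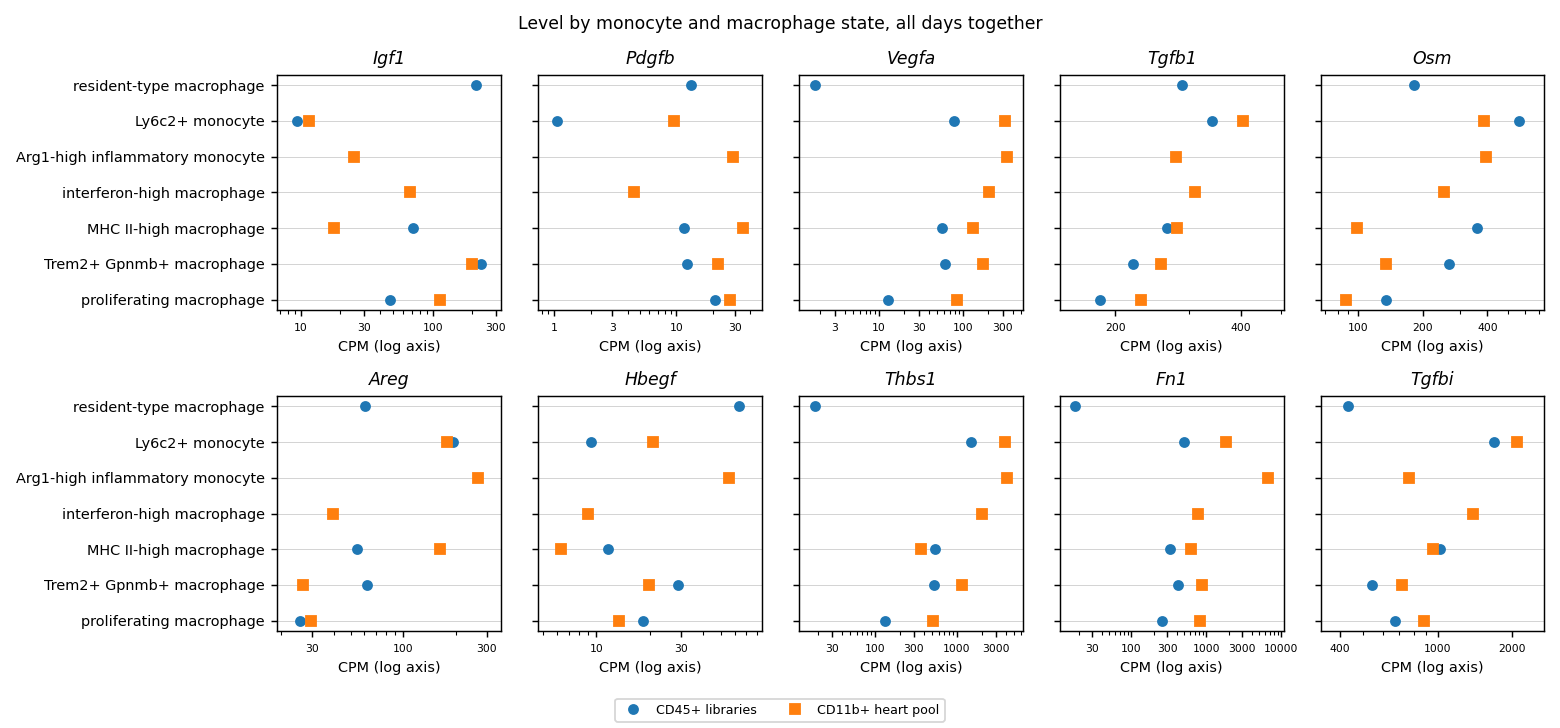
Level (CPM, log axis) of each gene in each named monocyte or macrophage state, over all days together. Circles are the CD45+ libraries and squares the CD11b+ heart pool, and a state with 1 symbol was found in that experiment only. Igf1 was highest in Trem2+ Gpnmb+ macrophages (in the CD45+ libraries it was highest in the resident type with finer clusters), and Vegfa, Thbs1 and Fn1 were lowest in the resident type. The resident type came mainly from the steady-state library, so for it state and infarction cannot be told apart.

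The matrix genes were lower in the resident type than in Ly6c2+ monocytes. Resident-type cells numbered 454 at steady state and 1, 2, 9 and 53 on days 1, 3, 5 and 7, while 1 Ly6c2+ monocyte came from steady state. State and infarction therefore cannot be told apart in these levels. Thbs1 was at 18.7 CPM in resident-type macrophages and at 1477 in Ly6c2+ monocytes of the CD45+ libraries, and at 3860 in Ly6c2+ monocytes of the pool. Fn1 was at 17.9 CPM in the resident type and at 508 in Ly6c2+ monocytes, while Arg1-high monocytes of the pool held 6621 CPM against 626 to 1848 in the pool's other named states. Fn1 stood among the 10 leading genes of that Arg1-high cluster, although it had no part in the clustering.
Vegfa was at 1.77 CPM in the resident type, 79.7 in Ly6c2+ monocytes and 61.0 in Trem2+ Gpnmb+ macrophages. In the pool Arg1-high and Ly6c2+ monocytes held the most Vegfa, 332 and 322 CPM, values close to each other beside a proliferating state of 85.1. Tgfbi was highest in Ly6c2+ monocytes in both experiments, at 1702 and 2093 CPM, and lowest in the resident type, at 435.

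Receptor ligands were spread differently. Areg reached 269 CPM in Arg1-high monocytes of the pool and 193 in Ly6c2+ monocytes of the CD45+ libraries, against 26.6 in the pool's Trem2+ Gpnmb+ macrophages. Osm was highest in Ly6c2+ monocytes of the CD45+ libraries, 561 CPM, and in the pool about equal in Arg1-high and Ly6c2+ monocytes, 394 and 387. Hbegf was highest in the resident type, 63.5 CPM, and in the pool's Arg1-high monocytes, 55.8, with 9.38 in Ly6c2+ monocytes of the CD45+ libraries. Pdgfb was highest in proliferating macrophages of the CD45+ libraries, 20.5 CPM, and in MHC II-high macrophages of the pool, 35.0. Tgfb1 varied least, from 184 to 342 CPM over the states of the CD45+ libraries and from 230 to 406 in the pool. Finer clusters of the CD45+ libraries brought out an Arg1-high state, which then held the highest Vegfa, Osm, Areg, Tgfbi, Thbs1 and Fn1. With Igf1 in the resident type, 7 of the 10 genes changed their highest state, and Tgfb1, Pdgfb and Hbegf did not. In the pool finer clusters moved Tgfb1 and Pdgfb (552 and 66.8 CPM) to nonclassical monocytes.

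Levels also moved between days inside a state, beside the shift of cells between states. Ly6c2+ monocytes made up 65.5% of monocytes/macrophages on day 3 and 24.3% on day 5 in the CD45+ libraries, and 61.0%, 31.8% and 18.2% on days 1, 3 and 5 in the pool. Trem2+ Gpnmb+ macrophages made up 48.9% in the CD45+ libraries and 56.4% in the pool on day 5, against 15.8% and 33.4% on day 3. Within Trem2+ Gpnmb+ macrophages Igf1 was at 37.6 CPM on day 3, 249 on day 5 and 294 on day 7 in the CD45+ libraries, and at 119 and 245 on days 3 and 5 in the pool. Within Ly6c2+ monocytes of the pool it stayed low, 5.44, 4.27 and 27.6 CPM on days 1, 3 and 5.
Areg in Ly6c2+ monocytes of the pool went from 572 CPM on day 1 to 100.4 on day 3 and 64.7 on day 5, and Osm from 689 to 340 and 279. Thbs1 there changed less, 4518, 3762 and 3619 CPM. In Arg1-high monocytes, by contrast, Fn1 stood at 4568 CPM on day 1, 7653 on day 3 and 7903 on day 5, Areg at 258, 279 and 270, and Osm at 262, 450 and 486. In this clustering day 1 was thus the highest day for Areg and Osm in Ly6c2+ monocytes and not in Arg1-high monocytes. That difference was not tested, with 1 sum per day. With finer clusters of the pool, over all days, Areg stood at 488 CPM in Arg1-high monocytes. MHC II-high macrophages came next at 92.0 CPM, with Ly6c2+ monocytes below them. Osm then stood at 552 CPM in Arg1-high and 331 in Ly6c2+ monocytes. Levels by day are not given for the finer clusters, so the contrast holds for the first clustering only.

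**Figure D4:**
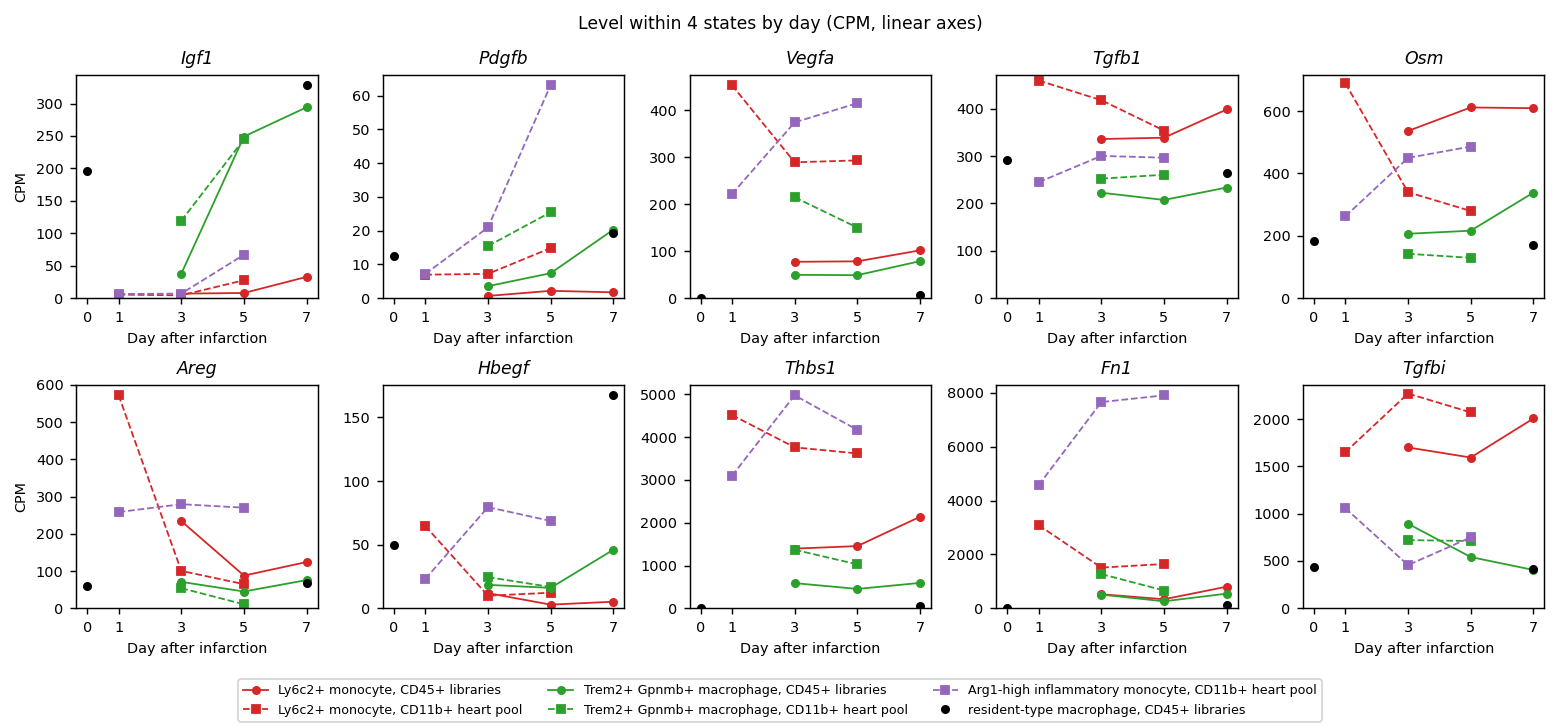
Level (CPM, linear axes) of each gene against the day after infarction within 4 states, by color. Circles and solid lines are the CD45+ libraries, squares and dashed lines the CD11b+ heart pool, and states with fewer than 30 cells on a day are not shown. Igf1 was higher on day 5 than on day 3 within Trem2+ Gpnmb+ macrophages of both experiments, and Areg in Ly6c2+ monocytes of the pool was highest on day 1.

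Neutrophils carried a narrower set of these transcripts. Thbs1 fell after day 1, and Hbegf fell with it at lower counts. Igf1 had 0 to 28 UMIs and Pdgfb 0 to 8 UMIs in the 6 sums, too few to test. Fn1 was at 18.3 to 76.4 CPM in neutrophils. For day 3 against day 1, 2 of the 8 genes tested passed, both lower, where 2.64% of all 6183 genes tested did, 0.647% higher and 1.99% lower. For day 5 against day 1, 4 of 8 passed, all lower, where 7.54% of all genes did, 1.97% higher and 5.56% lower. For day 5 against day 3, 0 of 8 passed and 0% of all genes, with 128 genes at an unadjusted p under 0.05 and 0 genes by DESeq2.

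**Figure D5:**
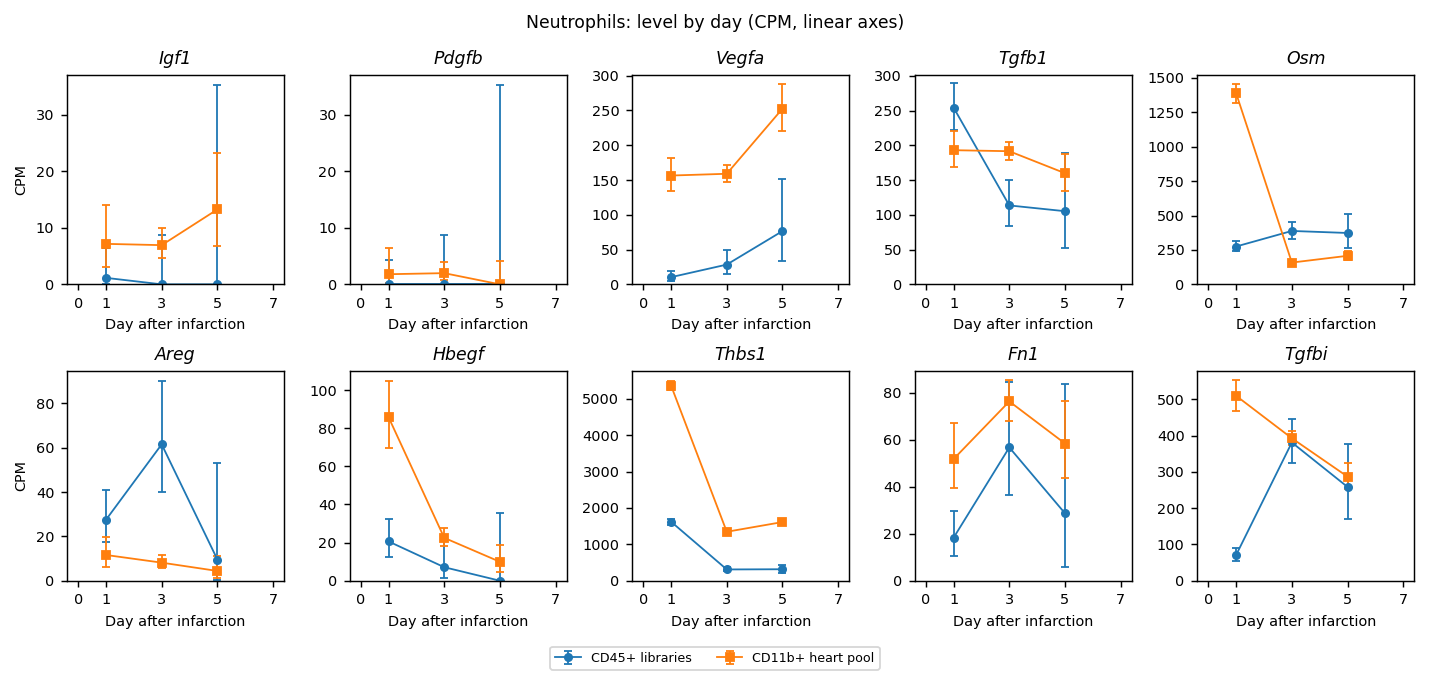
Level (CPM, linear axes) of each gene in neutrophils against the day after infarction, with exact 95% Poisson intervals (counting error only). Circles are the CD45+ libraries and squares the CD11b+ heart pool. Thbs1 was highest on day 1 in both experiments and Hbegf in the pool, while in the CD45+ libraries the limit of Hbegf on day 5 (0 UMIs) lies above its day 1 level. On this scale Osm was highest on day 1 in the pool only.

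Thbs1 in neutrophils was at 1621 CPM on day 1, 310.0 on day 3 and 316 on day 5 in the CD45+ libraries. Pool values were 5362, 1345 and 1612 CPM. Day 1 was the highest day in each experiment, with the experiments overlapping. The log2 change was -2.87 on day 3 (adjusted p = 0.0020) and -3.02 on day 5 (adjusted p = 0.0014), with calls on total counts alone as well (-2.19 and -2.02). In the 6 fits that left out 1 sum it ran from -3.26 to -2.47 on day 3 and from -3.53 to -2.63 on day 5.
Hbegf was at 20.6, 7.10 and 0 CPM on days 1, 3 and 5 in the CD45+ libraries, where 0 UMIs in 40 cells allow up to 28.7 CPM (3 counts), and at 85.8, 22.5 and 9.93 in the pool. Day 1 was the highest day in the pool, and in the CD45+ libraries days 1 and 5 could not be ordered at this depth. Its log2 change was -2.49 on day 3 (adjusted p = 0.014), and on day 5 the fit, which there rests on 9 UMIs, passed as well (adjusted p = 0.0019). Without the pool's day 5 the second call was lost (adjusted p = 0.096), and without the pool's day 1 or day 3 the first (0.088 and 0.53).

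Osm and Tgfb1 depended on the scaling. Osm in neutrophils was at 275, 388 and 373 CPM on days 1, 3 and 5 in the CD45+ libraries and at 1388, 158 and 207 in the pool, so that on this scale it was lowest on day 1 in one experiment and highest in the other. On the scale of the fit, day 1 was the highest day in both, with day 5 at -0.82 log2 against day 1 in the CD45+ libraries and -3.57 in the pool. Its log2 change from day 1 to day 5 was -2.52 (adjusted p = 0.021), and without the pool's day 1 it was -0.53 (adjusted p = 0.50). Tgfb1 was at 254, 114 and 105 CPM in the CD45+ libraries and at 193, 192 and 160.0 in the pool, with a log2 change of -1.73 (adjusted p = 0.027) and a loss of the call without CD45+ day 5.
Scaling the neutrophil sums to total counts alone moved the median of all genes by 0.67 log2 on day 3 and 0.92 on day 5. Osm (-1.55, adjusted p = 0.11) and Tgfb1 (-0.74, adjusted p = 0.20) then no longer passed, Thbs1 and Hbegf still did, and genes split into 1136 higher and 94 lower in place of 122 and 344. With clusters named over all other clusters, 0 of the 8 genes passed in either contrast, where 3 of all 5548 genes did on day 3 and 0 on day 5. When cells were assigned by their own marker counts, day 5 kept a lone sum, so only sizes are given. Thbs1 kept a lower level in both of these settings (-2.52 and -2.58 on day 5). Neutrophil marker genes summed to 246790 CPM in the CD45+ day 1 neutrophils and 53492 to 115990 CPM in the sums of later days and the pool. Monocyte/macrophage markers ran from 762 CPM on day 1 to 4680 on day 5 in the CD45+ neutrophils, and from 1771 to 1975 in the pool, and their part in the result was not tested.

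Vegfa in neutrophils did not pass the test. It was at 10.3, 28.4 and 76.6 CPM on days 1, 3 and 5 in the CD45+ libraries and at 156, 159 and 253 in the pool, highest on day 5 in each on this scale. On the scale of the fit, day 5 against day 1 was 1.62 log2 in the CD45+ libraries and -0.14 in the pool. The share of thinned neutrophils with a Vegfa UMI was 0.524% on day 1 and 10.0% on day 5 in the CD45+ libraries, the latter 4 of 40 cells, and 1.33% in B cells of day 7. Tgfbi was at 71.0, 381 and 258 CPM in the CD45+ libraries and at 510, 393 and 287 in the pool, which differ in order. Areg stayed at 4.41 to 61.5 CPM.
Whether the day effect differed between the classes was tested as an interaction over 12 sums. Between days 1 and 5, 0 of the 10 genes passed, where 0.00981% of all genes, 1 of 10195, did and 1641 genes had an unadjusted p under 0.05. The change in neutrophils minus that in monocytes/macrophages was 1.36 (SE 0.51, adjusted p = 0.23) for Vegfa, -2.01 (SE 0.59, adjusted p = 0.14) for Hbegf and -1.08 (SE 0.43, adjusted p = 0.25) for Thbs1. For day 3 against day 1, 0 of the 10 passed, where 0.0196% of all genes, 2 of 10195, did and 1187 genes had an unadjusted p under 0.05. These misses do not show that the classes moved alike. All of these values include CD45+ day 1, where the monocyte/macrophage sum carried neutrophil markers. The number of members passing moved when CD45+ day 1 was left out, a fit in which each class keeps a lone day 1 sum.

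Across leukocyte classes of the CD45+ libraries, Igf1, Osm, Hbegf, Tgfbi and Fn1 were highest in monocytes/macrophages. When cells were assigned by their own marker counts, Osm and Areg were highest in neutrophils instead. Thbs1 was highest in neutrophils, 1114 CPM against 795 in monocytes/macrophages, Areg in dendritic cells, 146 against 120 CPM, and Tgfb1 in natural killer cells, 592 against 272. Vegfa and Pdgfb were also highest in natural killer cells, at 57.3 CPM (24 UMIs) against 52.6 and at 11.9 (5 UMIs) against 8.84, within counting error. In the pool, which was sorted for myeloid cells, Osm, Hbegf and Thbs1 were higher in neutrophils (392, 32.3 and 2125 CPM) than in monocytes/macrophages (197, 18.9 and 1786), and the other 7 genes were lower in neutrophils. Days weigh differently in the classes, and these levels carry no test.

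Genes of the surrounding pathways were counted from 6 lists in the same fits. Those of monocytes/macrophages include the CD45+ day 1 sum, which carried neutrophil markers. In monocytes/macrophages 8 of 73 list genes tested rose between days 1 and 5 and 12 fell, where 4.74% of all genes rose and 5.45% fell. Receptors and ligand-processing genes of the transforming growth factor beta pathway split in monocytes/macrophages between days 1 and 5: of 22 genes tested of 26, 3 rose and 3 fell, with a list median of 0.06 log2 against 0.01 over all genes. The receptors Tgfbr1 (log2 change 1.71) and Tgfbr2 (1.68) and the integrin Itgav (0.92) rose, and the inhibitor Smad7 (-0.97) was among those that fell. Tgfbr1 went from 8.85 to 50.4 CPM in the CD45+ libraries and from 33.2 to 93.1 in the pool.
In the insulin-like growth factor list, 7 of 12 genes were tested, 1 rose and 2 fell. The binding protein Igfbp4 rose with Igf1 (3.00), from 3.37 to 45.8 CPM and from 6.28 to 44.3 in the pool, and Igfbp6 fell (-1.93). Of the epidermal growth factor list 6 of 14 were tested and 2 fell, with a median of -1.35. One of these was Errfi1 (-1.90), a feedback inhibitor of the receptor, at 233 and 209 CPM on day 1 and 63.8 and 76.9 on day 5.

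Of the platelet-derived and vascular endothelial growth factor families, 10 of 16 genes were tested, 4 rose and 1 fell, with a median of 1.25. Pdgfa (2.00) rose beside Pdgfb, from 4.63 to 27.1 CPM and from 14.5 to 59.0 in the pool, as did the co-receptor Nrp2 (1.56). In the gp130 cytokine list 8 of 10 were tested and 1 fell, Il6 (-5.04), from 773 to 20.7 CPM and from 165 to 9.01 in the pool. Of 20 matrix genes and receptors tested of 26, 0 rose and 3 fell: the proteoglycan Vcan (-3.75), the cross-linking factor F13a1 (-2.08) and the hyaluronan receptor Cd44 (-0.95). The median of that list was 0.01, the same as over all genes. In neutrophils 7 of 41 pathway genes tested fell between days 1 and 5 and 0 rose, where 5.56% of all genes fell and 1.97% rose, among them Acvrl1 (-3.28), Furin (-2.12), Rhbdf2 (-1.84), Ecm1 (-2.19), Spp1 (-2.14) and Cd47 (-2.01), and on total counts alone 3 passed.

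Likeness was measured as Pearson's r of log2(CPM + 10) over the 8 monocyte/macrophage sums, among 2465 genes of at least 50 CPM, as a description with no test. Of these sums, 5 share the CD45+ experiment and 3 the pool, so r also reads the gap between experiments. Closest to Igf1 were Gdf15 (0.981), Hpgds (0.971) and Tnfaip8l2 (0.970). Thbs1 was closest to Olr1 (0.990), Snx18 (0.983) and Hif1a (0.981), Fn1 to Bcl2l11 (0.996), Ell2 (0.993) and Ccdc71l (0.987), and Vegfa to Fn1 (0.986), Bcl2l11 (0.981) and Zc3h15 (0.981). For Areg the nearest genes were Serpinb2 (0.968), Srgn (0.95) and Plk3 (0.944), and for Osm they were Phlda1 (0.960), Nucb2 (0.958) and Samsn1 (0.947). Hbegf was nearest to Tnf (0.934), Cd163 (0.926) and Arhgap31 (0.899), and Pdgfb to Cebpa (0.953), Ptms (0.948) and Sod1 (0.943). Tgfbi lay nearest to Emilin2 (0.990), Eif4e2 (0.970) and Mdm2 (0.967), and Tgfb1, whose levels spanned only 0.76 log2, to Ndel1 (0.963), Thbd (0.953) and Ier3 (0.953).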

How the data were processed

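The deposited matrices held UMI counts per gene and cell barcode, made by the authors with Cell Ranger 3.0.2 per the file headers of the pools; the version for the CD45+ libraries was not given in the sources used here. The build was mm10 per the labels, which did not name it for the blood and heart pool. Cells needed 200 genes or more and no more than 10% of UMIs from mitochondria, which 17.4% of CD11b+ pool barcodes exceeded, and 1 hashtag in the pools. Scrublet marked 12 of 4824 CD45+ barcodes (0.249%), too few to count as a working doublet call. Each experiment was clustered with scanpy 1.11.5 (2000 variable genes without the 10 genes and their pathway lists, 30 components, 15 neighbours, Leiden resolution 0.5). A cluster needed 3 markers of a class in at least 20% of cells at 1.5 times the level of other classes, a rule settled after the clusters were seen. Counts were summed per class, day and experiment (at least 30 cells) and fitted in edgeR 4.0.16 (TMM, filterByExpr, day and experiment as terms, two-sided), with DESeq2 1.42.0 as an alternative. The self-test recovered 76% of 200 genes changed by 2 log2 among 10731 in monocytes/macrophages and 32.5% among 6183 in neutrophils for day 5 against day 1. Named pathway genes were called genes of at least 20 CPM on average, at most 3 per list and direction, of which 1 is not reported here; for likeness the 3 highest correlations were named. The members and lists were chosen with earlier results of these data known. Depth sets the Poisson and exact binomial intervals, both at 95% and for counting error only.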

Additional observations from a re-analysis of the deposited data

Results flagged for a closer look

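A cluster of 32 platelet-like cells of the blood and heart pool, which entered no comparison, held transcripts of 4 of the 10 genes above the limit of 3 counts in its 117448 UMIs, 25.5 CPM. Tgfb1 was at 195.83 CPM (23 UMIs), Tgfbi at 706.7 CPM (83 UMIs), Thbs1 at 689.67 CPM (81 UMIs) and Osm at 42.572 CPM (5 UMIs). Igf1, Areg, Hbegf and Fn1 had 0 UMIs there, and Vegfa and Pdgfb 1 each. Thbs1 was at 191 CPM in the monocytes/macrophages and 57.8 in the neutrophils of the same pool. Over its hashtags Thbs1 ran from 11.5 to 977 CPM in monocytes/macrophages and from 7.06 to 251 in neutrophils. In the same order, Tgfb1 ran from 395 to 549 and from 110 to 228 CPM. Tgfbi ran from 668 to 1952 and from 596 to 986 CPM, and Osm from 1.50 to 35.8 and from 19.8 to 128. Whether free RNA or attached cells gave these counts was not tested.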

How the results depend on the processing

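Members called for day 5 against day 1 in monocytes/macrophages numbered 9 and ran from 5 to 10 when 1 sum was left out; without the experiment term there were 0. For day 3 against day 1 the 0 became 5 with DESeq2, 5 without the filter on low counts, 3 with classes from each cell's own markers and 8 with clusters named over all other clusters, an alternative chosen after seeing the data in which the CD45+ day 1 sum dropped out, and 0 to 7 when 1 sum was left out. For day 5 against day 3 the 0 became 2 with DESeq2, 2 without the filter, 7 with that naming and 0 to 7 when 1 sum was left out. In neutrophils the 2 called on day 3 became 0 without the experiment term, 0 with own markers and 0 with that naming, and 1 to 3 with 1 sum left out. The 4 called on day 5 became 2 on total counts alone, 0 without the term, 0 with own markers, 0 with that naming, and 2 to 6 with 1 sum left out. Over the 6 pathway lists in monocytes/macrophages, the 0 genes called on day 3 became 17 with DESeq2, 14 without the filter, 5 with own markers, 20 with that naming and 0 to 29 with 1 sum left out; the 20 called for day 5 against day 1 became 0 without the term, 36 with that naming and 11 to 39; and the 0 for day 5 against day 3 became 5, 4 and 11 with DESeq2, no filter and that naming, and 0 to 13. In neutrophils the 3 pathway genes of day 3 became 7 without the filter, 0 without the term, 0 with that naming and 1 to 9. The 7 of day 5 became 3 on total counts, 0 without the term, 0 with own markers, 0 with that naming and 2 to 10, and the 0 for day 5 against day 3 became 0 to 1. Differences between the classes, 0 members, became 1 on total counts for day 5 against day 1, where 622 of 10195 genes passed. In the first 2 contrasts the number also moved when a day of an experiment was left out in both classes, CD45+ day 1 among them. Tgfbi in monocytes/macrophages for day 3 against day 1 changed sign, uncalled, to 0.086 on total counts and to 0.12 and 0.16 without the pool's day 1 or day 3 (-0.37 to 0.16 with each sum left out). At resolution 1.0, 3 of the 10 highest states of the CD45+ libraries were the same. Calls over all genes moved with the settings too. The shifts in members called above are therefore not read as results about these genes alone. Day 3 against day 1 in monocytes/macrophages had 4 of 10731 genes called in the main fit. That became 530 with DESeq2, 576 of 17981 without the filter and 100 of 10691 with own markers. The 2 called for day 5 against day 3 became 105 with DESeq2 and 82 of 17981 without the filter. Totals also moved with 1 sum left out and with that naming. For day 5 against day 1 in monocytes/macrophages, the 1094 of 10731 became 1703 with DESeq2, 963 on total counts and 0 without the term. In neutrophils the 163 of 6183 genes on day 3 and 466 on day 5 became 443 and 1230 on total counts. They became 0 and 0 without the term, and 3 and 0 of 5548 with clusters named over all other clusters. The cause of these shifts was not tested, apart from the sums that drop out. No paired analysis was possible because each day had 1 sum per experiment, so the experiment term takes that place. Depth limited the neutrophils most: the CD45+ sum of day 5 held 40 cells and 104485 UMIs.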

Other observations

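In the blood and heart pool, whose 7 hashtags could not be paired with conditions, hashtags 6 and 7 stood apart from the others in monocytes/macrophages. Thbs1 was at 56.5, 11.5, 13.8, 14.0 and 43.6 CPM under hashtags 1 to 5 and at 825 and 977 under hashtags 6 and 7. Vegfa was at 0.341, 0.757, 0.167, 0.540 and 0.839 CPM under the first 5 and at 19.3 and 20.2 under the other two. Tgfbi ran from 668 to 849 CPM under hashtags 1 to 5, with 1918 and 1952 under 6 and 7, and Osm from 1.50 to 5.57, with 35.8 and 15.5. Pdgfb went the other way, 11.4 to 31.3 CPM under hashtags 1 to 5 and 3.07 and 7.90 under 6 and 7. Arg1-high monocytes made up 118 of 244 monocytes/macrophages under hashtag 6 and 160 of 270 under hashtag 7, and 0 to 3 cells under each of the others.

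Fn1 was high under all 7 hashtags, 1254 to 2230 CPM, whereas Igf1 was at 0 to 1.49 CPM. Nonclassical monocytes of that pool, 804 cells led by Eno3, Ace and Ear2, held 77.8 CPM of Pdgfb and 29.2 of Fn1, while its Ly6c2+ monocytes held 0.997 and 2170. In its neutrophils Hbegf was at 24.0 CPM under hashtag 6, 3.97 under hashtag 7 and 0 to 0.471 under the others, and Areg had 0 UMIs under every hashtag.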
